A study of Mus musculus with 4 samples.

Results

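The genes described here encode subunits and partners of 2 families of chromatin remodellers, SWI/SNF and ISWI, and the measurement is how much of their mRNA came down with the RNA-binding protein Cpeb4. They were chosen by gene symbol, which took 39 of the 53379 genes in the deposited table and used no measured value. By textbook complex membership, 31 of them are SWI/SNF subunits, ISWI ATPases or their BAZ partners. The symbol rule also took 8 genes that are not subunits of either family, the ATPases Smarcad1 and Smarcal1 and the ARID proteins Arid3a, Arid3b, Arid4a, Arid4b, Arid5a and Arid5b, and these are described separately. It left out Arid2, a SWI/SNF subunit, which is given with the neighbouring genes.

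RNA was immunoprecipitated with anti-Cpeb4 or with control anti-IgG antibody from lysates of the V-SVZ, the neurogenic niche lining the lateral ventricles, in wild-type (WT) CD1 mice at postnatal day 7 or 8. All libraries share this genotype, strain, age and tissue and differ in the antibody. The experiment was done 2 times, each with 1 library per antibody (n = 2 per antibody). Neither the number of animals behind a lysate nor whether the experiments drew on different animals is in the labels. The p-values therefore reflect only how far these 4 libraries vary, and that variation may be technical. The spread used for each gene is drawn mostly from other genes of similar level.

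SWI/SNF complexes, called BAF in mammals, use ATP to slide or evict nucleosomes, with either Smarca4 (Brg1) or Smarca2 (Brm) as the motor. The canonical BAF, PBAF and noncanonical BAF assemblies share a core and differ in added subunits. During neural development the progenitor complex, which carries Actl6a, Phf10 and Ss18, gives way to a neuronal complex with Actl6b, Dpf1 or Dpf3, and Ss18l1. ISWI motors, Smarca5 (Snf2h) and Smarca1 (Snf2l), space nucleosomes into regular arrays together with partners such as the BAZ proteins. Cpeb4 belongs to a family that binds the 3′ ends of mRNAs and regulates poly(A) tails and translation, so an mRNA's abundance after precipitation measures neither its transcription nor its protein.

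Across the 4 libraries, 22486721 to 35037171 reads fell on genes. Levels are in the FPKM that the authors deposited, read fragments per kilobase of transcript after scaling for library depth. The mRNA of the antibody's target, Cpeb4, was at 26.7 and 38.3 FPKM in the Cpeb4 libraries and at 9.04 and 9.66 in the IgG libraries. Markers of 8 cell classes of the V-SVZ and its surroundings, 35 genes in all, were tested and none was at 0, so the tissue's neuroblast, stem cell and glial transcripts were present in both precipitates. Of these markers 18 were higher, 6 lower and 11 not called. Over all genes tested, 38.8% were higher and 11.6% lower. The summed FPKM of neuroblast markers was 411 and 410 in the Cpeb4 libraries against 292 and 296 in IgG, and that of mature neuron markers 222 and 244 against 157 and 155. That of ependymal markers was 49.0 and 41.5 against 57.5 and 59.0. These sums moved with the antibody, and their part in the results was not tested. Single markers within a list differed. Of 5 neuroblast markers 3 were higher, and Dlx1 and Tubb3 were not called. Of 4 mature neuron markers 2 were higher, and Rbfox3 and Slc17a7 were not called. Of 4 ependymal markers 2 were lower. All 5 oligodendrocyte lineage markers were higher. In precipitates from bulk lysates, more RNA brought down by the antibody, more cells of a type and more RNA per cell cannot be told apart.

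Pbrm1, Ss18, Bcl7c and Smarca5 had the largest positive changes among the remodeller genes. With the authors' scaling, their FPKM + 1 was 1.77 to 2.05 times as high in Cpeb4 as in IgG precipitates. With read totals their log2 fold changes were 0.34 to 0.54. FPKM is relative to a library's depth and does not give the amount of mRNA in a precipitate. Smarcc2, Dpf1, Arid3a and Arid3b were lower in Cpeb4 precipitates, by 1.25 to 1.35 times. The other genes lay between them. All 39 genes passed the filter on low values (2 or more libraries with an FPKM of 1 or more) and were tested on log2(FPKM + 1) with limma, with the experiment as a block and p-values adjusted over 15745 genes. On this scale the fold change of low genes is understated.

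At an adjusted p under 0.05, 16 of the 39 genes (41.0%) were called higher, against a background of 38.8% of all genes tested, and 4 (10.3%) were called lower, against 11.6%. With the authors' scaling, both shares were close to the background. The median log2 fold change was 0.16 over the 39 genes and 0.19 over all genes tested, and 19 of the 39 lay above the median of all genes. FPKM did not overlap between antibodies for 21 genes with Cpeb4 above IgG (53.8%, background 53.2%) and for 12 with Cpeb4 below IgG (30.8%, background 22.7%). The median difference was 0.14 in the first experiment and 0.16 in the second.

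**Figure D1:**
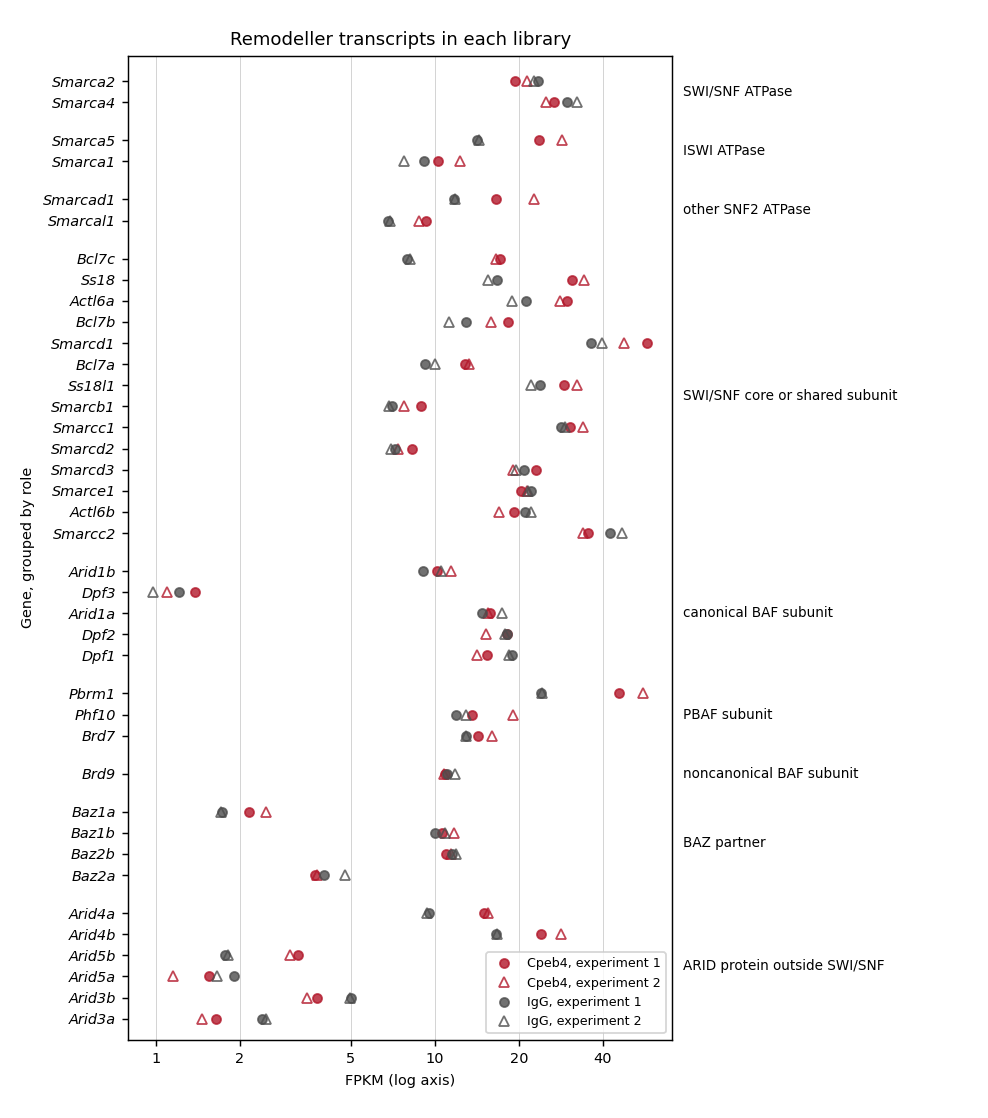
FPKM of the 39 remodeller genes in each of the 4 libraries, on a log axis, grouped by role. Red symbols are Cpeb4 and grey symbols IgG libraries, circles the first and triangles the second experiment; Pbrm1, Ss18, Bcl7c and Smarca5 show the red symbols well to the right of the grey ones.

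How many genes were called depended on how the libraries were scaled to each other. The authors' scaling put the median log2 fold change of all genes at 0.19; it was -0.04 with the trimmed mean of M-values, -0.11 after centring on the median of tested genes, -0.18 with the upper quartile and -0.24 with read totals. Among the 39 genes, 8 were called higher and 13 lower with the trimmed mean of M-values, against backgrounds of 25.6% and 25.6%. Centring on the median gave 7 higher and 14 lower (backgrounds 22.9% and 30.8%), the upper quartile 4 and 16 (19.7% and 37.1%), and read totals 4 and 19 (17.5% and 42.4%). Pbrm1, Ss18, Bcl7c and Smarca5 were called higher under all 5 scalings (10.3% of the genes, background 17.3%). Smarcc2, Dpf1, Arid3a and Arid3b were called lower under all 5 (10.3%, background 11.6%). The other 4 scalings all shift values down. All 1822 genes called lower with the authors' scaling stayed lower under all 5, so keeping a lower call sets no gene apart. Below, a gene is called higher or lower with the authors' scaling unless stated, and ratios between genes within a library, which no scaling can change, are given beside.

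**Figure D2:**
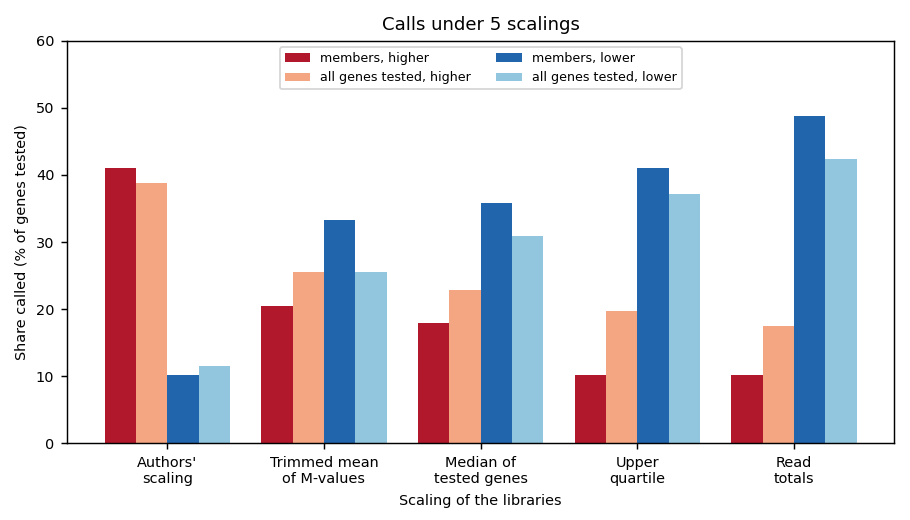
Share of genes called higher (red) and lower (blue) in Cpeb4 against IgG under 5 scalings of the libraries, for the 39 remodeller genes (dark bars) and all 15745 genes tested (light bars). The share called higher among the 39 genes was 41.0% with the authors' scaling and 10.3% with read totals, and the background moved with it.

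Neither SWI/SNF motor was called. Smarca4 was at 26.6 and 25.1 FPKM in the Cpeb4 libraries and at 29.8 and 32.4 in IgG, a log2 fold change of -0.26 (95% interval -0.52 to 0.00, limma adjusted p = 0.0945). Smarca2 was at 19.3 and 21.3 against 23.4 and 22.7 FPKM (log2 -0.18, 95% interval -0.44 to 0.08, limma adjusted p = 0.245). Both Cpeb4 libraries lay below both IgG libraries for each motor, and both genes were called lower under the other 4 scalings. The ratio of Smarca4 to Smarca2 was 1.38 and 1.18 in the Cpeb4 libraries and 1.27 and 1.43 in IgG, so the balance between the motors overlapped between antibodies.

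Of the 14 core or shared SWI/SNF subunits, 7 were called higher (50.0%, background 38.8%), 1 lower (7.14%, background 11.6%) and 6 not called, with a median log2 fold change of 0.31. Under all 5 scalings 2 of the 14 were called higher (14.3%, background 17.3%), Ss18 and Bcl7c. Ss18, which binds the motor and is fused to other genes in synovial sarcoma, was at 31.0 and 34.3 FPKM in Cpeb4 and 16.7 and 15.5 in IgG libraries. That is a log2 difference of 0.98 with an SE of 0.12 (limma adjusted p = 8.05e-06), and 0.48 to 0.71 under the other scalings. Bcl7c, one of 3 small BCL7 subunits, was at 17.1 and 16.6 against 7.91 and 8.15 FPKM (chromosome 7: 127661454 to 127708766, GRCm38), which gave a log2 value of 0.98 as well, with an SE of 0.12 (limma adjusted p = 6.36e-06). For both genes the libraries of each antibody lay close together and far from those of the other. The BCL7 paralogue Bcl7b was called higher at 0.47 (limma adjusted p = 0.00452) and Bcl7a at 0.40 (limma adjusted p = 0.012). Neither of these calls held under another scaling: Bcl7b was -0.017 and Bcl7a -0.071 with read totals, and Bcl7a was -0.0057 with the upper quartile. The ratio of Bcl7c to Bcl7a was 1.34 and 1.25 in Cpeb4 libraries against 0.860 and 0.813 in IgG, so Bcl7c was recovered more than its paralogue in both experiments.

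Actl6a, the actin-related subunit of progenitor complexes, was at 29.6 and 28.1 FPKM in Cpeb4 and 21.2 and 18.9 in IgG libraries (log2 0.50, SE 0.12, limma adjusted p = 0.00257). The call was lost under each of the other 4 scalings, where the value was 0.0069 to 0.23. Smarcd1, which encodes a subunit that contacts transcription factors, had the highest mean FPKM of the 39 over the 4 libraries. Smarcc2 was higher in both IgG libraries and Pbrm1 in Cpeb4 replicate 2. Smarcd1 was at 57.6 and 47.5 against 36.3 and 39.7 FPKM and was called higher (log2 0.45, limma adjusted p = 0.00951). That call too was lost under the other scalings, and the value was -0.051 with read totals. Smarcd2 and Smarcd3, which occupy the same place in the complex, were not called, at log2 fold changes of 0.13 and 0.05. Both were called lower with read totals, and Smarcd3 also with the upper quartile.

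Smarcc2 (BAF170), a scaffold subunit, was the only core subunit called lower. It was at 35.4 and 33.8 FPKM in Cpeb4 libraries and at 42.3 and 46.8 in IgG (chromosome 10: 128459182 to 128490591, GRCm38), which is -0.35 on the log2 scale (SE 0.12, limma adjusted p = 0.0267). Its partner scaffold Smarcc1 (BAF155) was at 30.6 and 33.9 against 28.3 and 29.3 FPKM and was not called (log2 0.16, limma adjusted p = 0.309). With read totals Smarcc1 was called lower (log2 -0.34). The ratio of Smarcc1 to Smarcc2 was 0.863 and 1.005 in Cpeb4 libraries and 0.670 and 0.627 in IgG. The scaffold paralogues thus differed in recovery by 1.44 times, and the libraries of the 2 antibodies did not overlap. The core subunits Smarcb1 and Smarce1 were not called, at log2 fold changes of 0.23 (95% interval -0.04 to 0.50) and -0.06 (-0.32 to 0.20). Smarce1 was called lower under the other 4 scalings.

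Among the subunits that define canonical BAF, Dpf1 was called lower (1 of 5, background 11.6%) and the other 4 genes were not called. Dpf1 (chromosome 7: 29303952 to 29317592, GRCm38), a PHD-finger subunit of the neuronal complex, was at 15.4 and 14.1 FPKM in Cpeb4 and 18.9 and 18.4 in IgG libraries (log2 -0.32, SE 0.12, limma adjusted p = 0.0401). The DNA-binding subunit Arid1a was at 15.7 and 15.5 FPKM in Cpeb4 libraries and at 14.7 and 17.4 in IgG, so its IgG libraries lay on both sides of the Cpeb4 ones. Its log2 fold change was -0.03 (95% interval -0.30 to 0.23) and that of its alternative Arid1b 0.13 (-0.13 to 0.39). Dpf2 had a log2 fold change of -0.11 and was called lower under the other 4 scalings. Arid1a was called lower with read totals, the upper quartile and median centring, and Arid1b with read totals. Dpf3 was the lowest of the 39 genes, at 1.38 and 1.09 against 1.21 and 0.976 FPKM on as few as 68 reads in a library, which limits its precision.

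Of the 3 PBAF subunits, 2 were called higher (66.7%, background 38.8%) and Brd7 was not called. Pbrm1 (polybromo), whose bromodomains read acetylated histones, had the largest change of the 39 genes. It was at 45.7 and 55.7 FPKM in Cpeb4 libraries and at 23.9 and 24.1 in IgG (chromosome 14: 31019138 to 31121592, GRCm38), with no overlap and a wider spread between the Cpeb4 libraries. On the log2 scale the difference was 1.04 with an SE of 0.13 (limma adjusted p = 4.84e-06), and it was 0.54 to 0.77 under the other 4 scalings. The gene had 5180 to 11088 reads per library, the highest maximum of the group. Its span overlaps Smim4, which was at 3.09 FPKM on average against 37.4 for Pbrm1.

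Phf10, the PHD-finger subunit of PBAF and of progenitor complexes, was at 13.5 and 19.1 FPKM in Cpeb4 libraries and at 11.9 and 12.9 in IgG (log2 0.35, SE 0.13, limma adjusted p = 0.0333). The call rested on Cpeb4 replicate 2: without it the log2 fold change was 0.12 and not called, and without Cpeb4 replicate 1 it was 0.59. It was also lost without either IgG library, at 0.29 and 0.41. The call was lost without the experiment block and under the other scalings, and the value was -0.065 with the upper quartile and -0.13 with read totals. Phf10 also overlaps the span of 1600012H06Rik, which was at 16.3 FPKM on average; whether their exons overlap was not tested. Brd7, the bromodomain subunit of PBAF, was at 14.3 and 16.0 against 12.9 and 12.9 FPKM and was not called (log2 0.21, limma adjusted p = 0.167). Brd9, which defines noncanonical BAF, was at 10.9 and 10.8 against 11.0 and 11.8 FPKM (log2 -0.065, 95% interval -0.33 to 0.20). Brd9 was not called with the authors' scaling and was called lower under the other 4.

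**Figure D3:**
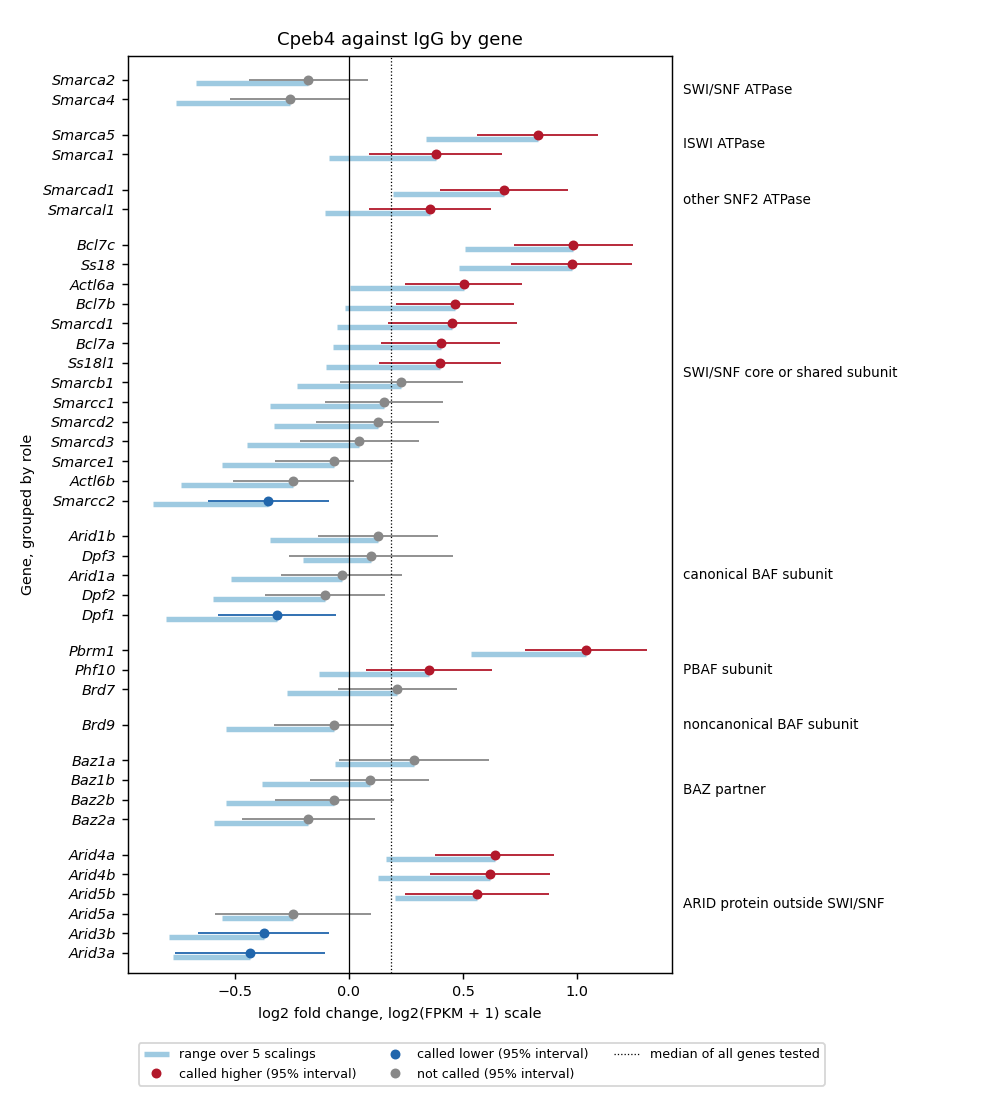
Log2 fold change of Cpeb4 against IgG on the log2(FPKM + 1) scale for the 39 genes by role. Points and thin lines give the value and its 95% interval with the authors' scaling (red called higher, blue called lower, grey not called). Pale bars are the range over 5 scalings, and the dotted line is the median of all genes tested, 0.19. The pale bars of Pbrm1, Ss18, Bcl7c and Smarca5 stay above 0, as do those of Arid4a, Arid4b, Arid5b, Smarcad1 and, barely, Actl6a.

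The subunits that change between progenitor and neuronal complexes could be compared within a library. The ratio of Actl6a to Actl6b was 1.54 and 1.66 in Cpeb4 libraries and 1.01 and 0.857 in IgG. Actl6b itself was at 19.3 and 16.9 against 21.0 and 22.1 FPKM and was not called (log2 -0.24, 95% interval -0.51 to 0.02). Under the other 4 scalings Actl6b was called lower. By the ratio within libraries, Cpeb4 precipitates held 1.71 times as much Actl6a per Actl6b as IgG precipitates did. The ratio of Ss18 to Ss18l1 was 1.07 and 1.06 in Cpeb4 libraries and 0.700 and 0.704 in IgG, a difference of 1.52 times with close replicates. Ss18l1 (CREST), the neuronal counterpart, was at 28.9 and 32.2 against 23.8 and 22.0 FPKM and was also called higher (log2 0.40, limma adjusted p = 0.0142), a call lost under the other scalings with negative values at the upper quartile (-0.030) and read totals (-0.10). The ratio of Phf10 to Dpf1 was 0.877 and 1.35 in Cpeb4 and 0.630 and 0.703 in IgG libraries, with a wide spread between the Cpeb4 libraries.

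Against Dpf3, the other neuronal counterpart of Phf10 and a gene with few reads, the ratio was 9.78 and 17.5 in Cpeb4 libraries and 9.83 and 13.2 in IgG, and the antibodies overlapped. For Actl6a to Actl6b, Ss18 to Ss18l1 and Phf10 to Dpf1 the progenitor subunit was recovered more with Cpeb4 than its neuronal counterpart, without overlap, and for Phf10 to Dpf3 this did not hold. Their paralogue Dpf2 gave ratios in both directions, each without overlap. Dpf2 to Dpf1 was 1.17 and 1.08 in Cpeb4 libraries against 0.961 and 0.965 in IgG. Dpf3 to Dpf2 was 0.0764 and 0.0718 against 0.0667 and 0.0550, so the neuronal Dpf3 was recovered more than Dpf2, on few reads. A lack of overlap was common and not particular to these pairs. Of the 22 pairs compared, only Smarca4 to Smarca2, Bcl7b to Bcl7a, Arid4b to Arid4a and Phf10 to Dpf3 overlapped. With 2 libraries against 2, an exact two-sided permutation test of a ratio cannot give a p below 0.333, so these are descriptions of these libraries. Marker lists moved too: the summed FPKM of transit amplifying markers was 50.0 and 56.2 in Cpeb4 libraries against 38.8 and 40.1 in IgG, and that of stem cell and radial glia markers 893 and 941 against 574 and 550. Single markers went both ways: 3 of 4 transit amplifying markers were higher and 1, the proliferation marker Mki67, was lower (log2 -0.62, limma adjusted p = 0.0011). Of 5 stem cell markers 3 were higher and 1, Nes, was lower (log2 -0.40, limma adjusted p = 0.0197), and the largest part of that sum was the glutamate transporter Slc1a3, at 468 and 500 FPKM in Cpeb4 libraries against 246 and 238 in IgG. Both neuronal lists given above also had larger sums in the Cpeb4 libraries, and the part of cell composition in the ratios was not tested.

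**Figure D4:**
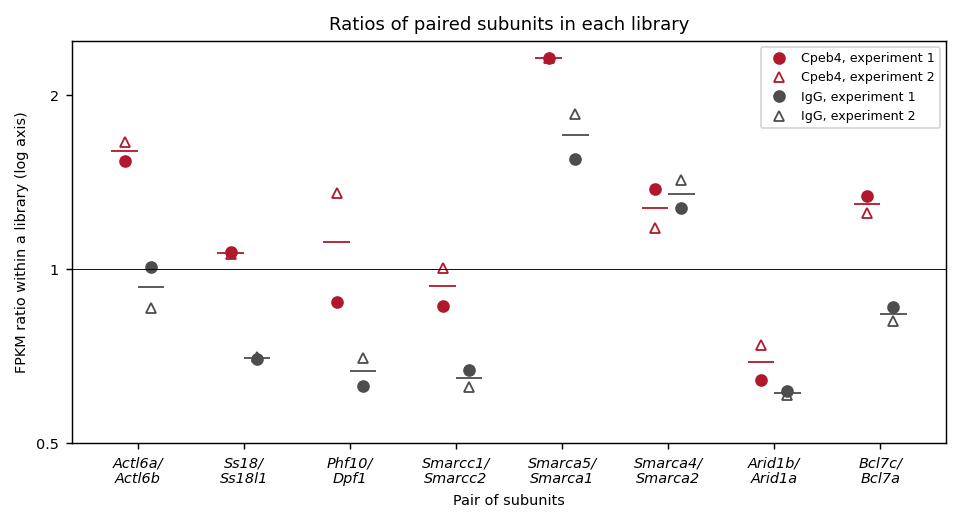
Ratio of FPKM between paired subunits within each library, on a log axis; short lines are the means of the 2 libraries of an antibody. For Actl6a to Actl6b, Ss18 to Ss18l1 and Bcl7c to Bcl7a the Cpeb4 libraries (red) lie above 1, while the IgG libraries (grey) lie below or at about 1; Smarca4 to Smarca2 overlaps.

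Both ISWI motors were called higher (2 of 2, background 38.8%). Smarca5, the widely expressed motor, was at 23.7 and 28.6 FPKM in Cpeb4 libraries and at 14.1 and 14.3 in IgG (chromosome 8: 80699943 to 80739459, GRCm38), where again the groups did not overlap (log2 0.83, SE 0.12, limma adjusted p = 4.32e-05). The value was 0.34 to 0.56 under the other scalings and the call held in each. Smarca1, which is more abundant in neurons, was at 10.2 and 12.3 against 9.12 and 7.73 FPKM (log2 0.38, SE 0.14, limma adjusted p = 0.0294). That call was lost under the other scalings, with -0.024 at the upper quartile and -0.089 with read totals, and it was also lost without Cpeb4 replicate 2 (log2 0.26) or either IgG library. The ratio of Smarca5 to Smarca1 was 2.32 and 2.32 in Cpeb4 libraries and 1.55 and 1.86 in IgG.

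None of the 4 BAZ partners was called by limma on FPKM with the authors' scaling. The count was 0 of 4 (backgrounds 38.8% higher and 11.6% lower), with 0 also at an unadjusted p under 0.05. Limma-voom on the recovered reads called 1, Baz1a. Baz1a (Acf1) was at 2.15 and 2.47 FPKM in Cpeb4 libraries and 1.73 and 1.70 in IgG (log2 0.28, 95% interval -0.04 to 0.61), and 0.42 with limma-voom. Baz1b (the Williams syndrome transcription factor) was at 10.6 and 11.7 against 9.96 and 10.9 FPKM, with overlapping libraries (log2 0.09). Baz2a (Tip5), which silences ribosomal DNA, and Baz2b had log2 fold changes of -0.18 and -0.06. Both were called lower under the other 4 scalings, and Baz1b was called lower with the upper quartile and read totals.

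The genes that share a name or a domain with these complexes, but are not their subunits, moved in both directions. Smarcad1, an ATPase that maintains silent chromatin through replication, was at 16.5 and 22.7 FPKM in Cpeb4 and 11.7 and 11.8 in IgG libraries (log2 0.68, SE 0.13, limma adjusted p = 0.000465), a call that held with the trimmed mean of M-values and with median centring and was lost with the upper quartile and read totals. Smarcal1, which remodels stalled replication forks, had a log2 fold change of 0.35 (limma adjusted p = 0.0277), and -0.041 with the upper quartile and -0.10 with read totals. Arid4a and Arid4b, paralogues that join the Sin3 corepressor, were both called higher. Arid4a was at 14.9 and 15.5 against 9.48 and 9.36 FPKM (log2 0.64, limma adjusted p = 0.000404). Arid4b was at 24.0 and 28.4 against 16.6 and 16.7 FPKM (log2 0.62, limma adjusted p = 0.000587). Both calls held in 3 of 5 scalings, and the values stayed positive at 0.13 or more in all.

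The Arid3 genes, which encode sequence-specific DNA-binding proteins, were lower under every scaling. Arid3a was at 1.63 and 1.46 FPKM in Cpeb4 libraries and 2.40 and 2.47 in IgG (log2 -0.43, SE 0.15, limma adjusted p = 0.0287). Arid3b was at 3.79 and 3.47 against 5.01 and 4.97 FPKM (log2 -0.37, SE 0.13, limma adjusted p = 0.0297). In the Arid5 pair the paralogues parted. Arid5b was higher at 3.23 and 3.01 against 1.76 and 1.81 FPKM (log2 0.56, limma adjusted p = 0.00487), a call that held in 2 of 5 scalings, while Arid5a was at 1.55 and 1.15 against 1.90 and 1.65 and was not called. Under the other 4 scalings Arid5a was called lower. The ratio of Arid5b to Arid5a was 2.08 and 2.61 in Cpeb4 libraries against 0.927 and 1.10 in IgG, the widest difference among the 22 pairs compared, at 2.32 times. Arid5a had as few as 126 reads in a library, which limits the precision of this ratio.

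Calls near the threshold rested on few libraries. Without IgG replicate 1 the 39 genes gave 9 higher and 0 lower calls (backgrounds 26.5% and 5.98%), and without IgG replicate 2 they gave 8 and 0 (25.3% and 5.51%). In those fits the spread came from the Cpeb4 pair, which varied more than the IgG pair. The lower calls of Smarcc2, Dpf1, Arid3a and Arid3b were lost in both, at -0.28 and -0.43 for Smarcc2, -0.30 and -0.33 for Dpf1, -0.42 and -0.45 for Arid3a and -0.37 and -0.38 for Arid3b. The higher calls of Bcl7a, Phf10, Smarca1, Smarcal1, Smarcd1 and Ss18l1 were also lost in both, that of Arid5b without IgG replicate 1 (0.55), and those of Actl6a and Bcl7b without IgG replicate 2 (0.42 and 0.37). The calls of Pbrm1, Ss18, Bcl7c and Smarca5 held without any 1 of the 4 libraries. Without Cpeb4 replicate 1 the counts were 18 and 6 (41.5% and 15.9%), with Brd7 and Smarcc1 added among the higher and Smarca4 and Actl6b among the lower genes, and without Cpeb4 replicate 2 they were 15 and 5 (41.4% and 11.9%). Other settings moved the background as well. Fitted without the experiment block, 15 of the 39 were higher and 4 lower (backgrounds 38.2% and 10.9%), and a pseudocount of 0.1 gave 16 and 4 (38.0% and 10.9%). With no filter on low values 8 were higher and 0 lower (8.35% and 1.87%), and among the 32 genes with an FPKM of 5 or more in 2 libraries 15 were higher and 2 lower (51.3% and 9.28%). Limma-voom on recovered reads called 17 higher and 4 lower (41.2% and 11.8%).

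Transcript length and level moved with the fold change across the transcriptome, and the remodeller genes are long and well expressed. The length implied by the FPKM had a median of 4.77 kb over the 39 genes and 3.04 kb over all genes tested, and the mean FPKM a median of 14.4 against 7.94. Across all genes tested, which share the libraries and are not independent, the fold change correlated with log2 length at 0.33 and with mean level at 0.32. Across the 39 genes these correlations were 0.04 and 0.23. With the trend on length and level removed from the values, 4 of the 39 were called higher (10.3%, background 23.9%) and 17 lower (43.6%, background 25.7%), and 13 of the 39 lay above the median of all genes. In that setting the shares departed from the background toward lower values, and Smarca5 lost its call (log2 0.22). Pbrm1, Ss18 and Bcl7c were still called, at 0.35, 0.44 and 0.48, as was Arid5b at 0.36.

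In the authors' deposited table, which also compares Cpeb4 with IgG, 13 of the 39 genes were higher (background 21.7%) and 1, Arid3a, was lower (background 4.93%) at an adjusted p under 0.05. All 14 of these were also called here in the same direction. The backgrounds from the authors' table are over 22709 genes, more than the 15745 that passed the filter on low values here. All 39 genes passed that filter, so their share and those backgrounds are not compared like with like. The authors' deposited table gives log2 fold changes of 1.06 for Pbrm1, 1.06 for Bcl7c, 1.01 for Ss18 and 0.86 for Smarca5.

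Other genes of remodelling complexes, listed by textbook membership, numbered 51, of which 18 were higher (35.3%, background 38.8%), 3 lower (5.88%, background 11.6%) and 30 not called. Of 13 further SWI/SNF and ISWI genes, 6 were higher (46.2%), 1 lower (7.69%) and 6 not called, with a median log2 fold change of 0.29. Bcl11a and Bcl11b, neuronal transcription factors that associate with BAF, were higher by 0.98 (limma adjusted p = 1.04e-05) and 0.93 (limma adjusted p = 1.28e-05) on the log2 scale. The histone chaperone Rbbp4, shared with other chromatin complexes, was at 73.1 and 76.1 FPKM in Cpeb4 libraries and 41.1 and 39.8 in IgG (log2 0.87). These calls of Bcl11a, Bcl11b and Rbbp4 held under all 5 scalings. The histone-fold subunit Pole3, of the ISWI complex CHRAC, was lower at 22.9 and 21.7 against 32.5 and 33.3 FPKM (log2 -0.54, limma adjusted p = 0.00145). Arid2, the PBAF counterpart of Arid1a and singled out after its values were seen, was at 21.6 and 24.0 against 14.2 and 15.9 FPKM (log2 0.57, limma adjusted p = 0.000952), a call that held in 2 of 5 scalings.

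Of 30 INO80, SRCAP and TIP60/p400 genes, 10 were higher (33.3%, background 38.8%), 2 lower (6.67%, background 11.6%) and 18 not called, with a median of 0.20. Under all 5 scalings 5 of the 30 were called higher (16.7%, background 17.3%). Ino80d rose the most, from 2.47 and 2.47 FPKM in IgG to 7.08 and 8.82 in Cpeb4 libraries (log2 1.36, limma adjusted p = 7.82e-07), followed by Epc2 at 1.10 and Actr6 at 1.01, each under all 5 scalings. Trrap and Ep400 were lower at -0.40 and -0.31 (limma adjusted p = 0.0141 and 0.0492). Of 8 other SNF2-like ATPases, 2 were higher (25%, background 38.8%), Hltf at 0.82 and Hells at 0.65. None was lower (background 11.6%) and 6 were not called. The Hltf call held under all 5 scalings and the Hells call in 2.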

How the data were processed

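RNA from 2 anti-Cpeb4 and 2 anti-IgG immunoprecipitates was measured. Per the labels' protocols, the immunoprecipitation used a MAGNA RIP kit, and libraries came from SMART-Seq v4 cDNA, in which strand is lost, by way of Nextera XT. Named in the submitters' processing notes, without role or setting, are STAR 2.6.0c, HTSeq 0.6.1p2, DESeq2 1.26.0, Trim Galore 0.5.0, FastQC 0.11.5 and mm10. Per the file headers, the deposited table holds FPKM for each library. It also holds the authors' comparison: a mean level, which is a signal (reads divided by size factors), a test score, a p-value and its adjusted value, and a log2 fold change with the SE. The table held 0 columns of other samples.

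Reads were recovered from the steps of the FPKM joined to the authors' mean level (100% of values whole within 0.01 read) and served for depth, other scalings and limma-voom. Reads without molecular identifiers are not independent molecules. The 15745 genes that reached an FPKM of 1 in 2 or more libraries entered a limma 3.58.1 fit (R 4.3.3) of log2(FPKM + 1) on antibody, blocked by experiment, with a trended prior, two-sided tests and Benjamini-Hochberg adjustment. The block follows the experiment numbers in the titles, which the labels do not otherwise tie to a batch; deviations of same-numbered libraries correlated at 0.002 across genes. The block left 1 residual degree of freedom, and the prior added 14.6. An SE thus rests mostly on the spread shared by genes of similar level, and it was 0.12 to 0.17 across the 39 genes. The chi-square per degree of freedom between replicates was 28.7 for Cpeb4 and 6.40 for IgG, well above sampling noise. The code was tested on simulated data. The genes, lists and tests were chosen with earlier results of these data known. All genes of the symbol rule could be named; from each neighbouring list, up to 3 called genes with the largest change in each direction were. Positions are from RefSeq (GRCm38.p6), matched by symbol for 39 of 39 genes.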

Additional observations from a re-analysis of the deposited data

How the results depend on the processing

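The counts of 16 higher and 4 lower calls and the median log2 fold change of 0.16 moved with the scaling of the libraries. Read totals gave 4 higher, 19 lower and a median of -0.27, the upper quartile 4, 16 and -0.20, the trimmed mean of M-values 8, 13 and -0.054, median centring 7, 14 and -0.14, and removal of the length and level trend 4, 17 and -0.20. No filter on low values gave 8 and 0, where 46911 genes shared the adjustment. An FPKM of at least 5 left 32 genes, with 2 lower and a median of 0.22. The median was 0.16 with a pseudocount of 0.1 and 0.18 with limma-voom. Without the replicate block 15 were higher and 4 lower, and only the Phf10 call changed. Leaving out 1 library, which could be fitted only without the block, gave 8 to 18 higher, 0 to 6 lower and medians of 0.18 to 0.21. The neighbouring genes, 18 higher and 3 lower, gave 9 and 20 with read totals, 9 and 17 with the upper quartile, 11 and 16 with median centring, 8 and 12 with the trend removed, 10 lower with the trimmed mean of M-values and 1 lower with no filter. Without 1 library they gave 12 to 23 higher and 0 to 4 lower. Scaling shifts each library by its own nearly constant amount on the log2 scale, and the adjusted p did not follow the fold change alone. For Pbrm1 the value was 0.54 with read totals (limma adjusted p = 0.00055) and 0.61 with the upper quartile (limma adjusted p = 0.00116). The part of the shift in the counts above, and the cause for the length and level trend, were not tested.

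Values changed sign as follows. With read totals: Arid1b -0.34, Baz1a -0.059, Baz1b -0.38, Bcl7a -0.071, Bcl7b -0.017, Brd7 -0.27, Dpf3 -0.18, Phf10 -0.13, Smarca1 -0.089, Smarcal1 -0.10, Smarcb1 -0.23, Smarcc1 -0.34, Smarcd1 -0.051, Smarcd2 -0.33, Smarcd3 -0.45 and Ss18l1 -0.098. With the upper quartile: Arid1b -0.28, Baz1a -0.012, Baz1b -0.32, Bcl7a -0.0057, Brd7 -0.20, Dpf3 -0.14, Phf10 -0.065, Smarca1 -0.024, Smarcal1 -0.041, Smarcb1 -0.16, Smarcc1 -0.28, Smarcd2 -0.27, Smarcd3 -0.38 and Ss18l1 -0.030. With median centring: Arid1b -0.17, Baz1a -0.014, Baz1b -0.21, Brd7 -0.087, Dpf3 -0.20, Smarcb1 -0.069, Smarcc1 -0.14, Smarcd2 -0.17 and Smarcd3 -0.25. With the trimmed mean of M-values: Arid1b -0.13, Baz1b -0.16, Brd7 -0.050, Dpf3 -0.054, Smarcb1 -0.018, Smarcc1 -0.12, Smarcd2 -0.12 and Smarcd3 -0.22. With the trend removed: Arid1b -0.37, Baz1b -0.40, Bcl7a -0.042, Brd7 -0.20, Phf10 -0.082, Smarca1 -0.044, Smarcb1 -0.21, Smarcc1 -0.48, Smarcd1 -0.098, Smarcd2 -0.12, Smarcd3 -0.44 and Ss18l1 -0.17. Leaving out 1 library in turn gave -0.084 to 0.18 for Smarcd3 (-0.00033 without IgG replicate 2), -0.22 to 0.011 for Dpf2 and -0.15 to 0.080 for Arid1a, none of which was called. Depth limits the genes with few reads, such as Dpf3.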

Other observations

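Among the remaining paralogue pairs, those of the Smarcd family did not overlap between antibodies. The ratio of Smarcd1 to Smarcd3 was 2.51 and 2.50 in Cpeb4 libraries and 1.73 and 2.03 in IgG, and that of Smarcd1 to Smarcd2 was 6.95 and 6.43 against 5.03 and 5.68. Smarcd3 itself was at 23.0 and 19.0 against 20.9 and 19.5 FPKM. The ratio of Arid4b to Arid4a was 1.61 and 1.83 against 1.75 and 1.79, and the libraries overlapped. The ratio of Baz1a to Baz1b was 0.203 and 0.211 against 0.173 and 0.157.

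By gene span in RefSeq, 7 of the 39 genes overlap another gene with a mean FPKM of at least 1. Besides Pbrm1 and Phf10 these are Arid1a, Arid4a, Bcl7a, Brd7 and Smarcd3.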
